A study of Mus musculus with 20 samples.

Results

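Of the 20 mouse hearts of the series, 5 contained clear messenger RNA of Myl7, the regulatory myosin light chain of atrial muscle, and 15 did not. The 5 hearts were chosen by their own Myl7 value, which had to be at least 10 FPKM, a unit that divides the fragments of a gene by its length and by the size of the library. They are called Myl7-high here, and each heart carries the number in its label, which occurs once. Since Myl7 made the choice, its values and those of the other atrial markers Myl4, Sln and Mybphl describe the hearts and were not taken as a finding.

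All mice were C57BL/6. Control mice are listed with floxed Wnt5a alone, with no Cre named. CKO mice carried the floxed gene with Myh6-Cre/Esr 1, a Cre recombinase driven by the heart-muscle promoter of Myh6 and joined to part of the oestrogen receptor, so recombination is aimed at heart muscle cells and not at the other cells of the organ. Hearts of either genotype were taken when tamoxifen ended, without an operation, and 2 and 4 weeks after a sham operation or TAC (transverse aortic constriction, which narrows the aorta and puts the left ventricle under pressure), with 2 hearts in each of the 10 groups.

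The Myl7-high hearts were spread unevenly over these groups. Heart 14 was a CKO heart 2 weeks after sham, with heart 15 as the other of its group. Heart 16 was a control heart 2 weeks after sham, with heart 12 beside it. Heart 11 was a control heart 2 weeks after TAC, with heart 32 beside it. Hearts 21 and 24 were both CKO hearts of the end of tamoxifen, and the control hearts of that stage, 22 and 23, were both low. None of the 8 hearts taken at 4 weeks was Myl7-high. The labels give the source only as heart, and name neither the chamber nor the age of the mice. Oestrogen receptor RNA (Esr1), which reports the transgene, was 548 FPKM or more in Myl7-high CKO hearts and at most 0.46 FPKM in all control hearts, so this RNA matched the genotype labels. Wnt5a itself overlapped, at 0.853 to 2.33 FPKM in the 10 CKO hearts and 1.58 to 4.11 in the 10 control hearts. Relative depth was estimated from how far apart the smallest values lie, and was 0.984 to 1.11 in the Myl7-high hearts and 0.873 to 1.2 in the others, where 1 is the mean. No 2 tables were identical.

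Atria are the thin receiving chambers of the heart, and their muscle differs from ventricular muscle in its contractile proteins, calcium handling, ion channels and hormone output. Atrial myocytes use the myosin light chains Myl7 and Myl4 in place of Myl2 and Myl3. They slow the calcium pump of the sarcoplasmic reticulum with sarcolipin (Sln), whereas ventricular myocytes rely on phospholamban (Pln). They also store and release atrial natriuretic peptide (Nppa), which ventricles make again under load.

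Myl7 lies on mouse chromosome 11 from 5896637 to 5898782 (minus strand), Myl4 on chromosome 11 from 104550663 to 104595753, Sln on chromosome 9 from 53850164 to 53854560 and Mybphl on chromosome 3 from 108364911 to 108380057, in GENCODE M21 for build GRCm38, the build that the submitters name mm10. The 250 bases before the start of 3 of these genes are shown because their RNA was high in the same 5 hearts. The sequences are from RefSeq, build GRCm38.p6, 5′ to 3′ on the strand of the gene, at chr11:5898783-5899032 for Myl7, chr11:104550413-104550662 for Myl4 and chr3:108364661-108364910 for Mybphl. Capitals mark matches to motifs of heart muscle factors, searched on both strands.
Myl7: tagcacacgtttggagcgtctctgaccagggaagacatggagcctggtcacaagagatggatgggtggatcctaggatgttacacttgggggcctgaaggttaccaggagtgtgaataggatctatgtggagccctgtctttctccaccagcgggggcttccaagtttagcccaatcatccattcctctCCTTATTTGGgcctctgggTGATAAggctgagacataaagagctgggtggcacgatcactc
Myl4: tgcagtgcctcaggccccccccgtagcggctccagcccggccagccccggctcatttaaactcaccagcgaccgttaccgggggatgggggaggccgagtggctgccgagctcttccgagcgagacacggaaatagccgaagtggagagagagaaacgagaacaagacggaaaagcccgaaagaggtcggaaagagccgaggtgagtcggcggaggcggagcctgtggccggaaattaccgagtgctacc
Mybphl: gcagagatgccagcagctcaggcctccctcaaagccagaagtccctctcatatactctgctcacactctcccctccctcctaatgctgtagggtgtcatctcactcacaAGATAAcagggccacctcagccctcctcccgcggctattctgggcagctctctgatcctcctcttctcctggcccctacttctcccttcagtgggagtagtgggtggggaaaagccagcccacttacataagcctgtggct

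The Myl7 window holds a CArG box, the site of serum response factor, whose first base lies 61 bases before the start, and a GATA match (TGATAA) whose first base lies 42 bases before it. The Mybphl window holds a GATA match (AGATAA) 141 bases before its start, and the Myl4 window holds no match. Over 32544 promoter windows of this length, 1.48% hold a CArG box and 16.5% a GATA match (AGATAA or TGATAA). The other motifs searched were the MEF2 site, which 3.22% of windows hold, the T-box site AGGTGT (11.9%), the COUP-TF site AGGTCA (14.0%) and the NKX2-5 site TNAAGTG, which 3259 windows hold, and none of the 3 windows shown holds one. The motifs were chosen after the sequences had been looked at, and they do not overlap one another here.

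Myl7 was 372 FPKM in heart 14, 323 in heart 21, 72.6 in heart 11, 50.6 in heart 24 and 32.2 in heart 16. In the 15 other hearts it was listed at 0 in 10 and reached 1.66 FPKM at most. The heart just inside the threshold was therefore heart 16 and the heart just outside was heart 32, with a wide gap between them. Steps between the low values put 1 fragment of Myl7 at about 0.34 FPKM at mean depth. By that estimate heart 14 held about 1079 Myl7 fragments and heart 16 about 97, while heart 32 held 5.

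Myl4, the essential light chain of atrial myosin, was 245 FPKM in heart 14, 211 in heart 21, 64.3 in heart 11, 26.2 in heart 24 and 26.5 in heart 16. The 15 other hearts had 1.01 to 5.64 FPKM with a median of 3.67, and no heart was at 0. Within the pairs, heart 14 had 66.6 times the Myl4 of heart 15, heart 11 had 11.4 times that of heart 32 and heart 16 had 5.54 times that of heart 12.

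Sln, the sarcolipin gene, was 109 FPKM in heart 14, 119 in heart 21, 24.7 in heart 11, 5.27 in heart 24 and 4.07 in heart 16. It was listed at 0 in 13 of the other 15 hearts and was at most 0.448 FPKM in them, a value worth about 1 fragment. Mybphl, which encodes a myosin-binding protein related to myosin-binding protein H, was 16.8, 13.2, 3.94, 0.828 and 1.07 FPKM in hearts 14, 21, 11, 24 and 16. It was listed at 0 in 11 of the other 15 hearts, and its highest value there was 0.511 FPKM in heart 23. The 2 groups of hearts did not overlap in any of the 4 genes. Heart 14 and heart 21 stood highest in each, and hearts 24 and 16 lowest among the 5.

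**Figure D1:**
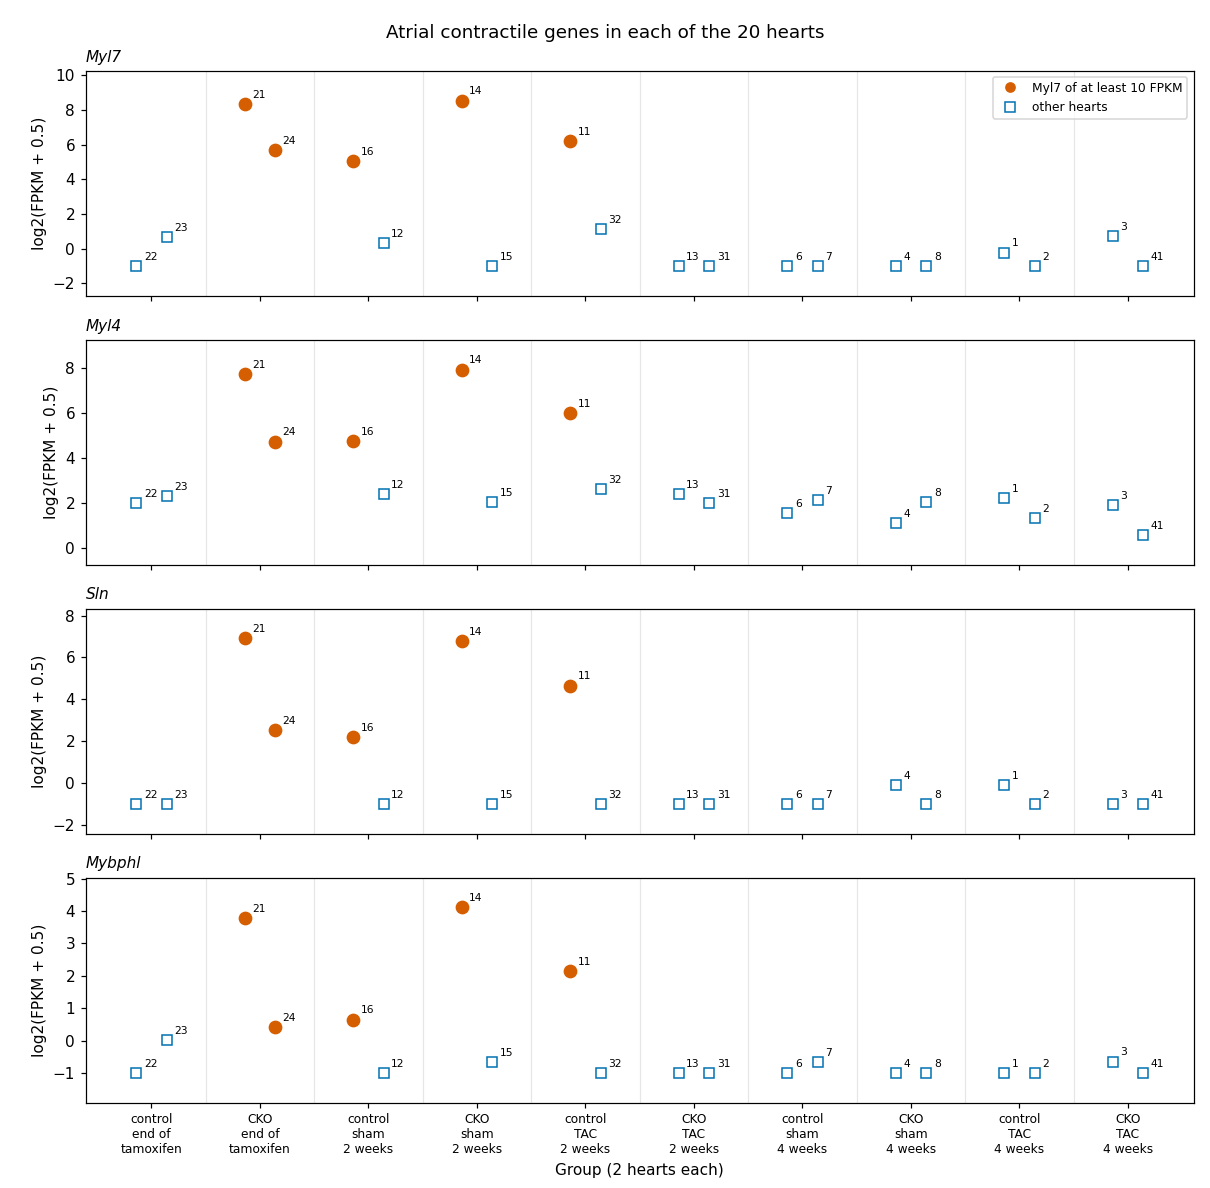
Values of Myl7, Myl4, Sln and Mybphl as log2(FPKM + 0.5) in each of the 20 hearts, arranged by group on the horizontal axis, with heart numbers beside the points. Filled circles are the 5 hearts with Myl7 of at least 10 FPKM, and they lie above all 15 open squares in each of the 4 panels.

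The proportions of the markers were not the same in all 5 hearts. Myl4 was 65.7% of Myl7 in heart 14 and 65.2% in heart 21, and ranged from 51.8% in heart 24 to 88.6% in heart 11. Sln was 29.3% to 36.9% of Myl7 in hearts 14, 21 and 11, and 10.4% and 12.6% in hearts 24 and 16, the hearts with the least Myl7. Mybphl was 1.64% of Myl7 in heart 24 and 3.32% to 5.43% in the other 4. These are ratios of FPKM, which are per length, and Sln in hearts 24 and 16 rests on an estimated 13 and 10 fragments.

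Set against their ventricular counterparts the atrial RNAs were a small share. Myl7 was 1.14% of Myl2 in heart 14, 0.832% in heart 21, 0.254% in heart 11, 0.15% in heart 24 and 0.0836% in heart 16, and at most 0.00551% in the other hearts. Sln was 2.57% of Pln in heart 14, 2.54% in heart 21 and 0.871% in heart 11, and 0.125% and 0.0833% in hearts 24 and 16. In bulk RNA a larger share of atrial cells and more atrial RNA per cell cannot be told apart.

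Genes were then compared between Myl7-high hearts and the other heart of the same group, in a limma model with a mean for each group and 1 term for Myl7-high. Only the pairs 14 and 15, 16 and 12, and 11 and 32 fix that term. It was read at a Benjamini-Hochberg (BH) adjusted p under 0.05 over all genes, and p-values measure the spread between separately labelled hearts. With Myl7 left out, 0 of 12588 genes passed (0%), while 371 had an unadjusted p under 0.05 (2.95%), 192 of them higher (1.53%) and 179 lower (1.42%). Differences are on the log2(FPKM + 0.5) scale, which understates the change of low genes, and their error is the standard error (SE) of the model.

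Sln (5.54 ± 0.91), Myl4 (3.88 ± 0.71) and Mybphl (3.19 ± 0.69) had large differences with limma adjusted p of 0.26, 0.47 and 0.69. The difference varied between pairs, for Myl4 from 2.35 in hearts 16 and 12 to 5.88 in hearts 14 and 15. Leaving out either heart of a pair removes that pair from the term, and without heart 14 or 15 the fitted differences were 4.42 for Sln, 2.88 for Myl4 and 2.40 for Mybphl. Because Sln was at 0 in heart 15, heart 12 and heart 32, its difference moves with the pseudocount, from 4.60 at 1 FPKM to 7.81 at 0.1 FPKM. As a description, with nothing read from it, these 3 markers were the genes of the 12588 whose 5 Myl7-high values all lay above all 15 others (0.0238%), and 0 genes had all 5 below. Sln and Mybphl, with means of 0.0591 and 0.0611 FPKM in the 15 others, passed the filter on low values only through the hearts where they were high. Cyp2e1, an enzyme of foreign-compound oxidation, was left out by the filter on low values. Its 5 Myl7-high values also lay above all 15 others, at 0.579 to 1.99 FPKM against at most 0.477. Other models passed some of the 3 markers, and also Dkk3 or Stard10. This is no independent support, since Myl7 chose the same hearts. With log2 Myl7 as a number in place of the 2 classes 4 genes passed (0.0318%), namely Myl4, Sln, Mybphl and Dkk3, and with no group in the model 3 passed (0.0238%), Sln, Myl4 and Mybphl. Additive terms in place of group means passed Sln and Myl4 but not Mybphl. Myl7 in FPKM as a number, a model added after seeing the data, passed Mybphl and Stard10 but neither Sln nor Myl4, both with a limma adjusted p of 0.0527.

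Genes for secreted proteins behaved unequally, and which cells their RNA came from was not tested. Hamp, which encodes the iron-regulating hormone hepcidin, was 14.2 FPKM in heart 14, 20.5 in heart 21, 6.92 in heart 11 and 1.36 in heart 24, and was listed at 0 in heart 16. The other 15 hearts were at 0 in 12 cases and reached 0.755 FPKM. So 4 of the 5 lay above all others and heart 16 did not. With a mean of 0.148 FPKM in the 15 others, Hamp passed the filter on low values only through the hearts where it was high. It was in none of the fixed lists and was chosen after its values were seen. How many of all genes lie this way was not counted, so the separation is a description only. Heart 24 rests on an estimated 2 fragments of Hamp, against 1 each in hearts 12, 23 and 41. The fitted difference was 2.48 ± 1.00 (limma adjusted p = 1). It was 1.28 without heart 14 or 15 and 4.38 without heart 12 or 16. Bmp10, a ligand made by atrial myocytes, was 2.86 FPKM in heart 14 and 0 in the other 4 Myl7-high hearts, and in the 15 others it was at 0 in 14 and 0.119 FPKM in 1.

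Nppa, the atrial natriuretic peptide gene, was 625 FPKM in heart 14 and 170 in heart 15, and 226 in heart 16 and 116 in heart 12. After TAC it was 9118 in heart 11 and 10098 in heart 32. At the end of tamoxifen it was 495 and 217 in hearts 21 and 24, and 127 and 224.5 in hearts 22 and 23. Heart 14 and heart 21 thus exceeded the 115.6 to 224.5 FPKM of the 8 other hearts without TAC, heart 24 did not, heart 16 did by a little, and the 7 other hearts after TAC had 454 or more. The fitted difference was 0.90 ± 0.39 with a limma adjusted p of 1. It was 0.41 without heart 14 or 15 and 1.42 without heart 11 or 32. Nppb, the related peptide that ventricles also make, was 1.99 times as high in heart 14 as in heart 15, 2.83 times in heart 16 against 12 and 0.826 times in heart 11 against 32 (0.74 ± 0.26, limma adjusted p = 1). That difference was 0.36 without heart 12 or 16 and 1.25 without heart 11 or 32, and it was −0.25 with no group in the model.

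Of the 10 secretory and natriuretic genes listed, 5 passed the filter and 0 were called. Pam, which amidates peptides in atrial granules, was higher in all 3 pairs (0.21 ± 0.09) and Corin, which activates the natriuretic peptide precursor, was lower in all 3 (−0.33 ± 0.14). Pam was at 0.14 without heart 14 or 15, and Corin at −0.21 without heart 11 or 32. For comparison, 9.11% of all genes were higher and 9.55% lower in all 3 pairs. The median of the 5 genes was 0.21, against 0 over all genes.

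Dkk3, a secreted Dickkopf-family protein, was 6.54 FPKM in heart 14 against 1.02 in heart 15, 3.02 in heart 16 against 1.16 in heart 12, and 10.1 in heart 11 against 7.53 in heart 32. At the end of tamoxifen it was 9.94 and 4.09 in hearts 21 and 24, and 0.45 and 1.17 in hearts 22 and 23. The 4 Myl7-high hearts without TAC were therefore above the 8 other hearts without TAC, whose highest was 1.68. The 7 others after TAC ranged from 0.691 to 7.53. With hearts after TAC included, the classes overlapped, and only hearts 11 and 21 lay above all the others. How many of all genes separate the hearts without TAC in this way was not counted, so that separation is a description only. The class difference was 1.23 ± 0.34 (limma adjusted p = 1), and 0.75 without heart 14 or 15. With log2 Myl7 as a number Dkk3 passed, at 0.22 ± 0.03 log2 units per log2 unit of Myl7 (limma adjusted p = 0.029). That fit uses the Myl7 values that chose the hearts, so it is no independent support for Dkk3.

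Stard10, a lipid-transfer protein, was 31.7 FPKM in heart 14 and 27.1 in heart 21, above the highest of the 15 others, 22.7. Of 13812 genes that reached 0.5 FPKM in a heart, small RNA genes left out, 59 had both hearts above all 15 others (0.427%). Hearts 24, 16 and 11 had 17.7, 18.7 and 6.97 FPKM, within the range of the others. In heart 16 it was 1.03 times heart 12, and in heart 11 1.03 times heart 32, and the fitted difference of 0.34 ± 0.17 was 0.04 without heart 14 or 15. With Myl7 in FPKM as a number, a fit added after seeing the data, Stard10 passed (limma adjusted p = 0.010). This fit too uses the Myl7 values that chose the hearts and is no independent support. Sbk2, a kinase gene enriched in atria, was 10.2 FPKM in heart 21 and 1.63 to 6.81 in the other 4, against 0.44 to 8.65 in the 15. It was lower in heart 16 than in heart 12, at 6.81 and 6.94 FPKM. Fam189a2, the other fitted gene of this list, was lower in 2 of the 3 pairs. It was 26.2 and 27.2 FPKM in hearts 14 and 15, and 25.3 and 28.1 in hearts 11 and 32. In hearts 16 and 12 it was 29.8 and 21.1. Of these 4 genes, 2 were higher in all 3 pairs (50%, background 9.11%), namely Dkk3 and Stard10. The median difference was 0.27.

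**Figure D2:**
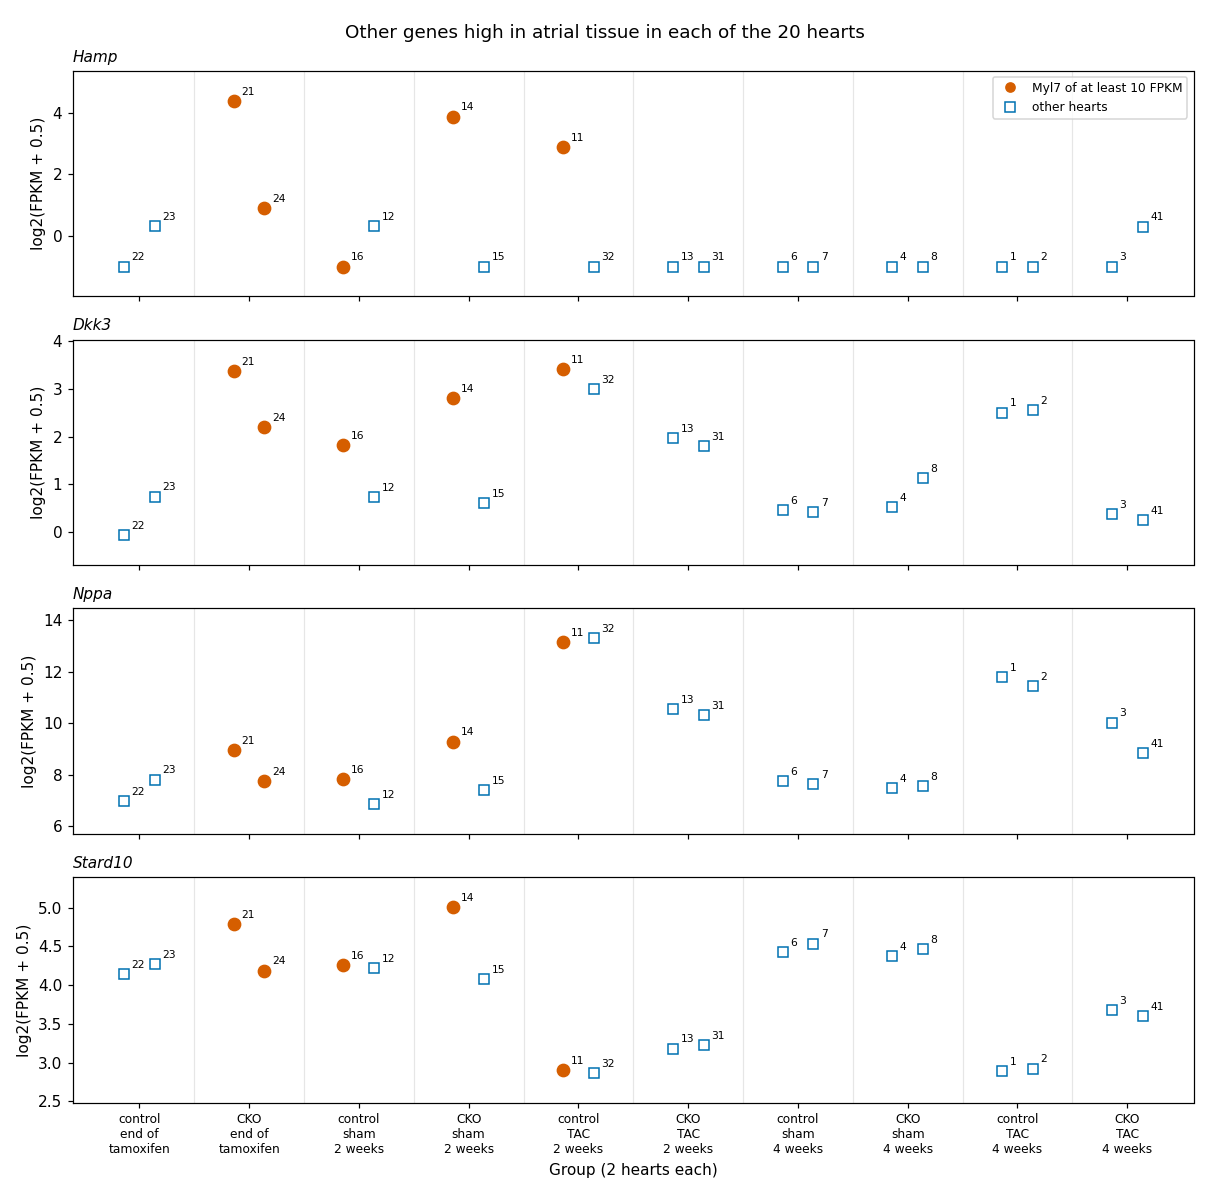
Values of Hamp, Dkk3, Nppa and Stard10 as log2(FPKM + 0.5) in each heart, by group, with Myl7-high hearts as filled circles and the others as open squares. Hearts 14 and 21 are high in Hamp and Stard10, while heart 16 has no Hamp, and Dkk3 and Nppa are also high in control hearts after TAC that have Myl7 under 10 FPKM.

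Channels and transcription factors that mark atria lay close to 0 as lists. Of 8 channel and connexin genes, 7 passed the filter, 0 were called, 1 was higher in all 3 pairs and the median difference was 0.05. Kcna5, a repolarizing potassium channel of atria, was 13.2, 5.86, 10.5, 7.81 and 9.84 FPKM in hearts 14, 21, 11, 24 and 16, against 5.32 to 18.3 in the others. Gja5, the connexin of atria and conduction tissue, was 2.66 to 4.12 FPKM in the 5 hearts and 2.35 to 5.32 in the 15. Both ranges overlapped.

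Of 11 atrial and inflow transcription factors, 9 passed the filter and 0 were called, with a median difference of 0.00. Nr2f2, which encodes COUP-TFII, a regulator of atrial identity, was 2.04 to 3.34 FPKM in Myl7-high hearts and 1.54 to 3.27 in the others. Tbx5, a factor of the atria and left ventricle, was 2.82 FPKM in heart 11 and 6.15 to 7.75 in the other 4, against 3.6 to 8.06 in the others, which heart 11 lay below. Of 11 genes of the pacemaker node, 7 passed the filter, 0 were called and the median was −0.03. Isl1, a node and progenitor factor, was listed at 0 in all 20 hearts, and Hcn4, the pacemaker channel, was 0.684 to 2.37 FPKM in the 5 hearts and 0.932 to 2.61 in the 15.

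No ventricular gene passed the test. Myl2, the regulatory light chain of ventricles, was 32794 FPKM in heart 14 and 41096 in heart 15, 38536 in heart 16 and 41290 in heart 12, and 28528 in heart 11 and 30151 in heart 32. The fitted difference was −0.17 ± 0.10, −0.09 without heart 14 or 15 and 0.01 with no group in the model, and the 15 others spanned 27350 to 41365. Of the 9 ventricular genes, 0 were called, 3 were lower in all 3 pairs (33.3%, background 9.55%) and the median was −0.11. After quantile normalization 1 was lower in all 3 pairs (11.1%, background 10.4%) and the median was −0.04.

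Myh7, the slow myosin heavy chain, was the exception in size. It was 143 FPKM in heart 14 against 17.8 in heart 15, and 177 in heart 16 against 12 in heart 12, but 421 in heart 11 against 466 in heart 32. The 8 other hearts without TAC ranged from 12 to 164, so 2 hearts with Myl7 listed at 0, hearts 4 and 7, exceeded heart 14 but not heart 16. The difference was 2.22 ± 0.84 (limma adjusted p = 1), and it was 1.42 without heart 12 or 16 and 3.40 without heart 11 or 32. Acta1, skeletal actin, which the heart makes under load, had the same arrangement, at 3.14 times, 3.87 times and 0.896 times in the 3 pairs, and the 8 other hearts without TAC reached 229 FPKM. Its difference was 1.14 ± 0.43 (limma adjusted p = 1), 0.74 without heart 12 or 16, 1.79 without heart 11 or 32, and −0.63 with no group in the model.

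**Figure D3:**
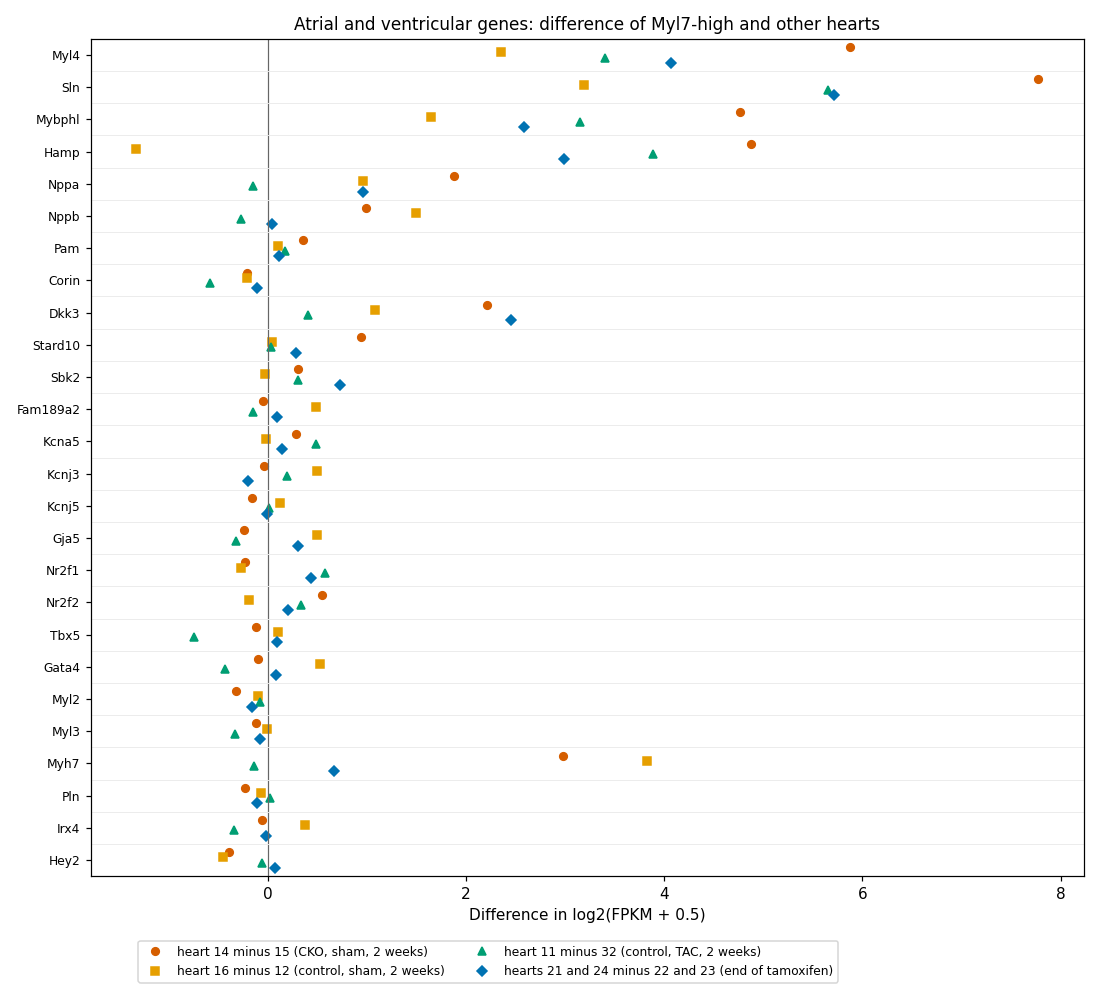
Difference in log2(FPKM + 0.5) between Myl7-high and other hearts for 26 genes, namely Hamp and members of the atrial and ventricular lists. Each gene has 1 symbol for each of the 3 pairs. A further symbol is the mean of hearts 21 and 24 minus that of hearts 22 and 23. Myl4, Sln and Mybphl are at 1.65 or more in every comparison, Hamp is negative in hearts 16 and 12, and most channel, transcription factor and ventricular genes lie near 0.

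Genes of the respiratory chain, which carry out oxidative energy production in mitochondria, lay a little below 0 as a list, and none passed. Of 22 measured, 0 were called, and 11 were lower in all 3 pairs (background 9.55%), with a median of −0.09. All 22 were lower in heart 14 than in heart 15, where 51.7% of all genes were, 19 in heart 11 than in heart 32, and 12 in heart 16 than in heart 12, with medians of −0.22, −0.07 and 0.00. Ndufa9, of complex I, was 748 and 971 FPKM in hearts 14 and 15, 829 and 866 in hearts 16 and 12, and 596 and 609 in hearts 11 and 32. Subunits of 1 chain move together and are not independent genes, and after quantile normalization 4 of the 22 were lower in all 3 pairs, with 10.4% of all genes.

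Sarcomere and other muscle genes common to both chambers, and fatty acid oxidation genes, were mostly lower in 3 of the 4 comparisons and mostly higher in hearts 16 and 12. Of 14 sarcomere and muscle genes, 13 were lower in heart 14 than in heart 15, 11 in heart 11 than in heart 32, 14 at the end of tamoxifen and 4 in heart 16 than in heart 12. Of 24 fatty acid oxidation genes, 24, 17, 23 and 4 were lower in the same order. Over all genes 51.7%, 49.7%, 50.3% and 49.6% were lower. Genes of 1 pathway are not independent, and 0 of either list passed the test. After quantile normalization the median fitted difference moved from −0.083 to −0.021 for the sarcomere and muscle genes. For fatty acid oxidation it moved from −0.06 to −0.009. Lower in all 3 pairs were then 1 of 14 and 1 of 24, with 10.4% of all genes.

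Lists for other cell types at the base of the heart and around it were also read, and none held a called gene. The clearest single case was heart 14. Upk3b, a uroplakin of the mesothelium, was 2.02 FPKM there, Msln (mesothelin) 1.87 and Krt19, an epithelial keratin, 1.02, against at most 0.558, 0.535 and 0.819 in the 15 others. Hearts 21, 11, 24 and 16 had at most 0.207 FPKM of Upk3b and 0.265 of Msln. Upk1b, Lrrn4 and Gpm6a of this list were also above all 15 others in heart 14. Krt18 at 0.221 FPKM, Wt1 at 2.38 and Aldh1a2 at 5.2 lay within the range of the 15. Of 12434 genes with at least 0.5 FPKM in heart 14, 382 were above all 15 others (3.07%). The summed epicardium and mesothelium list was nevertheless 13.5 to 32.1 FPKM in Myl7-high hearts and 14.4 to 36.3 in the others.

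Heart 14 was high in adipocyte RNA as well. Cfd (adipsin) was 17 FPKM in heart 14 and 2.04 in heart 15, and was 1.9 to 3.76 in the other 4 Myl7-high hearts against 0 to 4.75 in the 15. Adipoq, the adiponectin gene, was 2.45 FPKM in heart 14, and hearts 16 and 11 also lay above the highest of the 15, 0.823, at 0.991 and 0.914. Of genes with at least 0.5 FPKM in the heart, 4.66% in heart 16 and 6.76% in heart 11 were above all 15 others. The list of white adipocyte genes had a median of 0.36, and its summed level, 1728 to 2778 FPKM against 1821 to 3442, overlapped. The part of mesothelium or fat in the values of heart 14 was not tested.

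Several blood cell lists lay on both sides of 0. The neutrophil median was 0.94 in hearts 14 and 15, −2.35 in hearts 16 and 12, and 0.53 in hearts 11 and 32. Cell division genes had a median of 0.60 in hearts 11 and 32 and 0.00 and −0.11 in the sham pairs. Mast cell genes lay on 1 side, with medians of 0.18 in hearts 14 and 15, 0.13 in hearts 16 and 12, 0.32 in hearts 11 and 32 and 0.30 at the end of tamoxifen. Of the 5 that passed the filter, 3 were higher in all 3 pairs (60%, background 9.11%) and 0 were called. Their summed level, 4.53 to 10.2 FPKM in Myl7-high hearts and 2.54 to 9.58 in the others, overlapped. Cma1, a mast cell chymase, was 2.28, 1.28, 2.56, 1.75 and 0.585 FPKM in hearts 14, 21, 11, 24 and 16, within the 0.171 to 3.18 of the others.

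**Figure D4:**
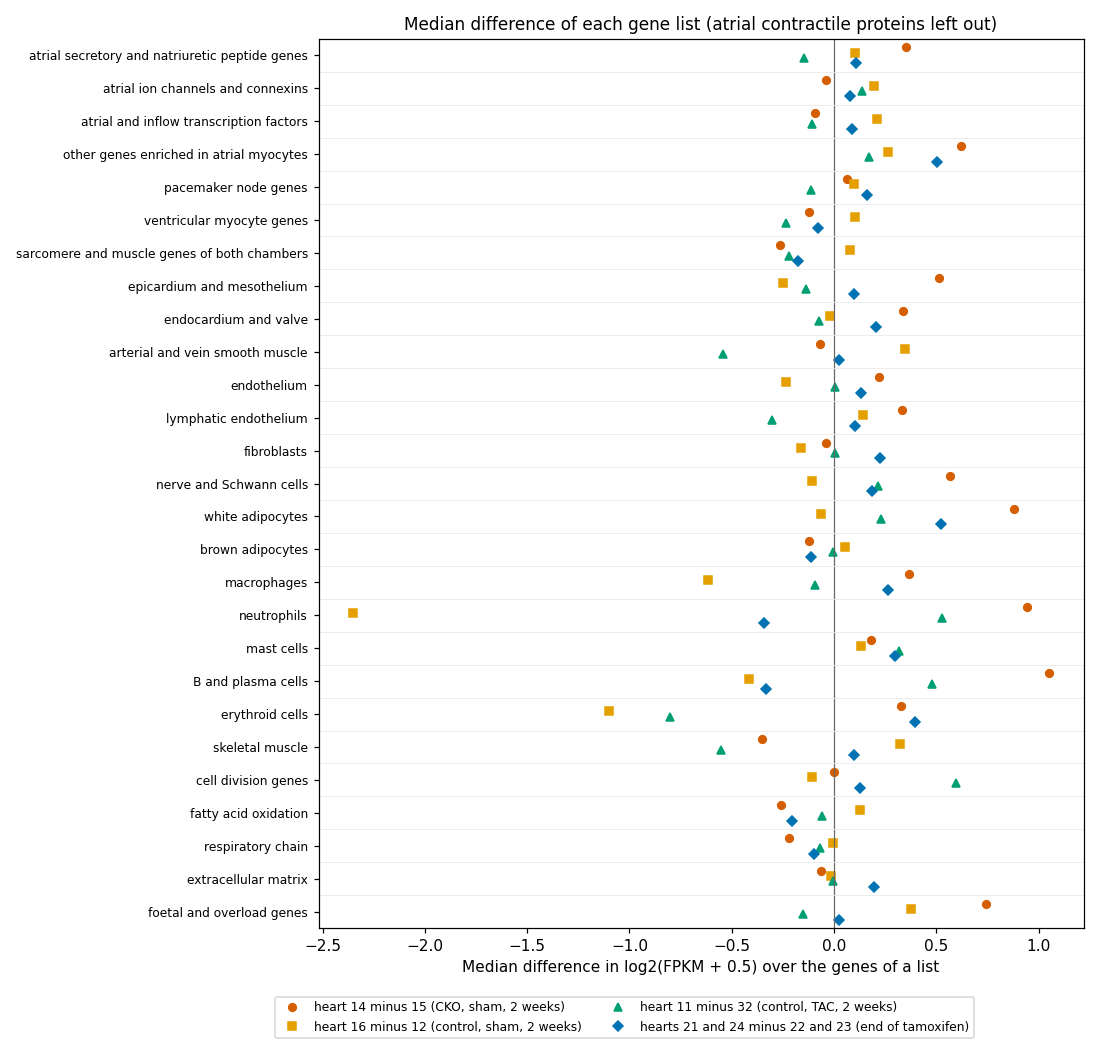
Median difference in log2(FPKM + 0.5) over the fitted genes of each gene list, with 1 symbol for each pair and 1 for the end of tamoxifen; lists with fewer than 3 fitted genes and the atrial contractile genes are left out. Other genes enriched in atrial myocytes lie at 0.17 or more in all 4 comparisons, and neutrophils lie on both sides of 0.

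The smallest p-values outside the atrial markers belonged to genes that did not pass. Calml4, a calmodulin-like protein, was 1.03 FPKM in heart 14, 0.745 in heart 16 and 1.6 in heart 11, against 0, 0 and 0.248 in hearts 15, 12 and 32 (1.47 ± 0.28, limma adjusted p = 0.47). Other hearts reached 2.01 FPKM of it, above all 5. The microRNA gene Mir1306 was 5017 FPKM in heart 14, 2000 in heart 11 and 0 in the other 18, and Mir5113 was 352 in heart 16, 2282 in heart 11 and 0 in the other 18. Snord33, a small nucleolar RNA, was above 0 in hearts 15 and 32 alone. Such short genes are poorly measured by messenger RNA libraries.

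Among genes with lower values, the smallest p belonged, after Snord33, to Fam203a (−0.64 ± 0.16), Eif2ak3 (−0.47 ± 0.12), Sord (−0.30 ± 0.08) and Gpt (−0.44 ± 0.12), each lower in all 3 pairs and each with a limma adjusted p of 1. Eif2ak3 encodes a kinase of the unfolded protein response, Sord is sorbitol dehydrogenase and Gpt is alanine aminotransferase. Gpt was 24.1 and 32.9 FPKM in hearts 14 and 15, 23.6 and 28.5 in hearts 16 and 12, and 11.2 and 17.3 in hearts 11 and 32, and the 15 others spanned 15.5 to 42.1.

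Hearts 21 and 24 take no part in the term, so their comparison with hearts 22 and 23 gives further values for the same genes, in hearts that Myl7 also chose. There genotype and Myl7 cannot be told apart. The CKO minus control difference was 4.06 for Myl4, 5.72 for Sln, 2.58 for Mybphl, 2.99 for Hamp, 2.46 for Dkk3 and 0.96 for Nppa. In sham hearts at 4 weeks, where no heart was Myl7-high, the same genotype difference was −0.27, 0.46, −0.17, 0, 0.38 and −0.18. After TAC at 4 weeks it was −0.55, −0.45, 0.18, 0.65, −2.21 and −2.19. The 25 other fitted genes of the atrial lists had a median of 0.10 at the end of tamoxifen, and all genes one of 0.00. Called genes numbered 2 of 12589 (0.0159%), Esr1, which the transgene carries, and Snora3, a small nucleolar RNA, and neither is atrial.

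Whether heart 11, after TAC, differed from heart 32 as the sham pairs differed was tested as the TAC pair minus the mean of the sham pairs. It passed 8 of 12589 genes (0.0635%), all of them small RNA genes, and 878 had an unadjusted p under 0.05 (6.97%). No atrial marker passed, with −0.72 ± 1.37 for Myl4, 0.17 ± 1.75 for Sln and −0.06 ± 1.38 for Mybphl, and these errors are too wide to show that the pairs act alike. Load-responsive genes had larger values that did not pass, namely −1.57 for Nppa (limma adjusted p = 0.71), −1.52 for Nppb (0.54) and −3.55 for Myh7 (0.71), since in these genes the sham pairs were higher in the Myl7-high heart and the TAC pair was not.

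The last comparison was of the study's own contrasts with and without the Myl7-high term. For TAC against sham at 2 weeks in CKO hearts, where heart 14 is 1 of the sham hearts, calls numbered 2424 of 12589 without the term (19.3%) and 1826 with it (14.5%), and 1715 genes were in both. In control hearts, where each arm holds 1 Myl7-high heart, they numbered 2998 (23.8%) and 2868 (22.8%), with 2820 in both. Single hearts moved these counts by over 1.5 times: in CKO hearts they were 605 and 28 without heart 15 and 465 and 254 without heart 31, and in control hearts 1618 and 1220 without heart 16 and 1707 and 1161 without heart 32. A further term also takes 1 of the 10 residual degrees of freedom. CKO against control called Esr1 alone in sham hearts at 2 weeks (0.00794%), with or without the term.

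For the markers the move is fixed by the choice of hearts and is given as a description. In the CKO contrast of TAC and sham, Myl4 was −2.79 ± 1.53 and Sln −3.89 ± 2.12 without the term, and −0.85 ± 0.95 and −1.12 ± 1.21 with it. Nppa was 2.08 ± 0.55 without it (limma adjusted p = 0.019) and 2.53 ± 0.52 with it (0.0083). Dkk3 was 0.17 ± 0.57 without it and 0.79 ± 0.45 with it, and was not called either way. In CKO minus control after TAC at 4 weeks, a contrast without Myl7-high hearts, Dkk3 was −2.21 in both fits, with an adjusted p in limma of 0.11 without the term and 0.032 with it. Only its SE moved, from 0.57 to 0.42. The term is fixed by pairs that Myl7 chose, so the lower value is no independent support for Dkk3. Calls in that contrast numbered 105 of 12589 without the term and 77 with it, with 76 in both.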

How the data were processed

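Messenger RNA of 20 hearts was measured; libraries were made with Illumina's TruSeq Stranded mRNA reagents, per the labels' protocols. The deposited values are FPKM, computed by the authors with TopHat2 2.1.1, Bowtie2 and Cuffdiff 2.2.1 on mm10, per the submitters' processing notes, for 23284 genes per heart. They hold no fragment counts, so depth is relative only. No gene with a mean of at least 20 FPKM was listed at 0 in a heart except 45 small RNA genes, Myl7 and S100a8.

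The 12589 genes whose mean over all hearts reached 0.5 FPKM were fitted as log2(FPKM + 0.5) in limma 3.58.1 (R 4.3.3) with group means, the trend option and a Myl7-high term, and adjusted by BH over all genes. The members, lists and tests were chosen with earlier results of these data known. Named genes were to be called genes with a mean of 1 FPKM or more in the 6 paired hearts and 1 direction in all 3 pairs. Since none passed, they were the 5 smallest p in each direction, with 1 clone-named gene passed over, the members of atrial and ventricular lists, up to 4 members of every other list, the 5 smallest p of the pair comparison, Wnt5a and Esr1. Cyp2e1, Hamp, Upk3b, Upk1b, Msln, Lrrn4, Krt18, Krt19, Isl1, Hcn4, Clec3a, Fgf12 and Snora3 were chosen after their values were seen. Tested on simulated data of 12589 genes with equal differences in each pair, the Myl7-high fit found 94% of the 2-fold changes and 98% of the 4-fold changes, and 4 of its 199 calls were false. In the same test the comparison of the TAC and sham pairs recovered 20% and 84%. In the real hearts the differences varied between pairs, and the many changed genes of the simulation ease the adjustment. These shares therefore do not show how many real differences the fits missed. Alternatives were other pseudocounts, filters, scalings, priors, models of Myl7, only the groups compared, and each heart left out. Figures were drawn with matplotlib 3.10.9.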

Additional observations from a re-analysis of the deposited data

Results flagged for a closer look

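The difference between the TAC pair (heart 11 minus heart 32) and the mean of the sham pairs passed limma for small RNA genes. It was 7.43 for Mir5113 (limma adjusted p = 1.2e-06), 5.32 for Mir1306 (6.7e-06) and 5.59 for Snord88c (2.0e-05), and it was −6.82 for Mir760 (6.7e-06) and −5.65 for Snord33 (6.7e-06). Each of these genes was listed at 0 in 18 or 19 of the 20 hearts and had values above 0 in 1 or 2 of the 6 paired hearts. Each arm of this contrast sets 1 heart against 1, and the model takes up the paired hearts, so the spread comes from hearts in which these genes are all at 0. Their p-values are therefore fixed by the zeros and are no evidence of a difference. With small RNA genes left out 0 genes passed.

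Signal in genes that the filter on low values left out was looked at in the Myl7-high hearts. Bmp10 was 2.86 FPKM in heart 14 and at most 0.119 in all other hearts. Fgf12, which modulates sodium channels, was 1.86 FPKM in heart 14, 1.43 in heart 21 and 0.658 in heart 11, against at most 0.287 in the 15 others, and hearts 24 and 16 were at or under that level with 0.0887 and 0.268. Clec3a, a lectin gene of cartilage, followed another order, with 1.96 FPKM in heart 16, 1.5 in heart 11 and 1.25 in heart 24, 0.362 and 0.242 in hearts 21 and 14, and at most 0.451 in the 15 others, of which 13 were at 0. For comparison, hearts 14 and 21 were both above all 15 others in 59 of 13812 genes (0.427%). Of genes with at least 0.5 FPKM in the heart, 4.66% in heart 16, 6.76% in heart 11 and 3.64% in heart 24 were above all 15 others.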

How the results depend on the processing

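The count of genes that differed between Myl7-high hearts and the others of their group was 0 under every planned pseudocount, filter, scaling and prior, and with only the groups compared. It was 3 with no group in the model, 2 with additive terms, 4 with log2 Myl7 as a number and 2 with Myl7 in FPKM as a number. With 1 heart left out it was 0 to 2: Sln without heart 21 or 24, Mir1306 and Snord33 without heart 12 or 16, and Mir5113 without heart 14 or 15. For each of these small RNA genes the heart left out was of the pair with both hearts at 0. Such calls follow from the zeros and are no evidence of a difference. Sln was 119 and 5.27 FPKM in hearts 21 and 24, and leaving out either takes that spread from the model. Sln is also a marker of the chosen hearts, so its call is no independent support. Classes at 5 or 20 FPKM of Myl7 hold the same hearts and gave no other value. The median of 25 atrial genes at the end of tamoxifen stayed between 0.07 and 0.16.

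The TAC pair against the sham pairs called 5 genes at a pseudocount of 0.1 FPKM, 160 with no filter and 0 without small RNA genes. It could not be fitted with only the groups compared or without hearts 11, 12, 14, 15, 16 or 32. With only the groups compared, TAC against sham called 1158 genes in controls and 15 in CKO hearts without the term, and 30 and 8 with it. In controls the range over hearts left out was 1618 to 3014 without the term and 1161 to 2899 with it, the lowest counts being those without heart 16 (1618 and 1220) and heart 32 (1707 and 1161). In CKO hearts it was 465 to 2453 without the term and 28 to 2030 with it, with 605 and 28 without heart 15 and 465 and 254 without heart 31. CKO against control at the end of tamoxifen called 5 genes with no filter and 4 with only the groups compared, without the term, 1 with or without the term when small RNA genes were left out, and with a heart left out 2 to 7 without the term and 2 to 6 with it. In sham hearts at 2 weeks it called 2 with no filter and 2 with only the groups compared, with or without the term, and with a heart left out 1 to 5 without and 1 to 4 with it. The cause of these moves was not tested, beyond the fewer samples of each such fit.

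Each pair is 1 heart against 1, and a heart number in the labels is used once. No paired analysis was possible because the groups share no replicate numbers. Of 4288 values of 140 named genes under the alternatives, 4098 kept their sign and 190 did not, and 78 of the 140 genes changed sign under at least 1 alternative.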
